A study of Homo sapiens with 16 samples.

Results

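A set of 10 genes that carry, phosphorylate or break down nucleosides and nucleoside drugs was followed in polyadenylated RNA of 2 human acute myeloid leukaemia lines. The genes were chosen by their known function, with earlier results of these data known. Matched by symbol to the Ensembl IDs of the deposited count table, all 10 were found among its 34618 genes. They are the transporters SLC29A1 and SLC29A2, the kinases DCK, DGUOK and TK2, the purine enzymes ADA and PNP, and SAMHD1, NT5C2 and NT5C, which take phosphates off nucleotides. The lines were KG1A, which is CD34-positive and immature, and U937, which is promonocytic, and each received NEL at 10 µM or the vehicle DMSO. Each of these 4 groups has 4 libraries, 16 in all, and each line stands for itself only, as 1 cultured leukaemia. NEL is taken to be nelarabine from knowledge of the published study, since the labels give only the abbreviation and no treatment time. The serum in the RPMI medium of all groups was dialyzed. The questions addressed were how these genes are set in each line before the drug and how their transcripts differ with it.

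Nelarabine is a soluble prodrug of the guanine analogue ara-G. Nucleosides enter cells mainly through equilibrative transporters, adenosine deaminase turns nelarabine into ara-G, and deoxycytidine kinase in the cytosol or deoxyguanosine kinase in mitochondria adds the first phosphate, which traps the drug. Further kinases build ara-GTP, which is inserted into DNA, while 5′-nucleotidases remove the first phosphate and SAMHD1 removes the whole triphosphate. TK2 is mainly a kinase of pyrimidine deoxynucleosides, so it is the member least tied to purine drugs.

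Total counts ran from 10641567 to 11777684 per library, and all 10 genes passed the filter for low counts in every comparison. A count of 0 in a library would allow a level of up to 0.255 to 0.282 CPM (counts scaled to the library total), for counting error only. CD34 was at 835 to 1033 CPM in KG1A and at 0 to 1.19 CPM in U937. The sum of 8 myelomonocytic markers was 3197 to 3349 CPM in U937 with DMSO, 2417 to 2477 CPM with NEL and 1.51 to 5.52 CPM in KG1A, although MPO, one of them, stayed at or under 0.632 CPM in both lines. The lower sum with NEL did not hold for each marker. In U937 ELANE was at 379 to 451 CPM with DMSO and 205 to 221 CPM with NEL. CD33 was higher with NEL (86.0 to 92.85 and 101 to 112 CPM), as was CD4 (180 to 202 and 259 to 287 CPM). Of 6 T lymphoid markers the 5 in the table summed to 143 to 162 CPM in KG1A, mostly CD3D, and to 0.357 to 0.984 CPM in U937. The 5 B lymphoid markers summed to 0.706 to 1.65 CPM in KG1A, and in U937 to 13.4 to 17.1 CPM with DMSO and 39.3 to 45.3 CPM with NEL. Their part in the results was not tested. In every group libraries 1 and 3 were closer to each other than to libraries 2 and 4, so values within libraries 1 and 3 (odd) and within 2 and 4 (even) are given too. Whether libraries of a group are separate cultures is not stated in the labels, and p-values then measure only how these libraries vary, which may be technical variation.

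RefSeq promoter windows (GRCh38.p14) were held for 9 of the 10 genes, and the 250 bases before the start are printed for 4 genes with a single start in that table. They were picked because their transcripts stand for 4 patterns with NEL: DCK rose in U937, PNP rose in KG1A, SAMHD1 rose in both lines and NT5C fell in both. Capitals mark matches, on either strand, to the E-box CACGTG, the GC box GGGCGG, the CCAAT box CCAAT, the ETS core CGGAAG, the TATA box TATAAA or the E2F forms TTTCCCGC, TTTCGCGC, TTTGCCGC and TTTGGCGC. The windows are DCK on the plus strand (chr4:70993399-70993648), PNP on the plus strand (chr14:20469156-20469405), SAMHD1 on the minus strand (chr20:36951709-36951958) and NT5C on the minus strand (chr17:75131743-75131992).
DCK: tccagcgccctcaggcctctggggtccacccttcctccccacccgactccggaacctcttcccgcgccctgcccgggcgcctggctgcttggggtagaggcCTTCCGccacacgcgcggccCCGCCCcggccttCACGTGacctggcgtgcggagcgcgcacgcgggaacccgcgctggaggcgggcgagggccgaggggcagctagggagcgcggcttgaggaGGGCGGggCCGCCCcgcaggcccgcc
PNP: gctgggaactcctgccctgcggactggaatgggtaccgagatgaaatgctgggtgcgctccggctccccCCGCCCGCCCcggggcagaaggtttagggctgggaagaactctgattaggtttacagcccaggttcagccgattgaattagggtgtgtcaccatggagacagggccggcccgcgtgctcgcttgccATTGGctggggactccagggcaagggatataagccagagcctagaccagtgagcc
SAMHD1: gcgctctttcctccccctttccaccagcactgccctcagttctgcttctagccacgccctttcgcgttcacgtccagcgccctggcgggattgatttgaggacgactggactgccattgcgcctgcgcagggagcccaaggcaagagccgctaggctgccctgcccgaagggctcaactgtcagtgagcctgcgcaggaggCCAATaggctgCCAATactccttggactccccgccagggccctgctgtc
NT5C: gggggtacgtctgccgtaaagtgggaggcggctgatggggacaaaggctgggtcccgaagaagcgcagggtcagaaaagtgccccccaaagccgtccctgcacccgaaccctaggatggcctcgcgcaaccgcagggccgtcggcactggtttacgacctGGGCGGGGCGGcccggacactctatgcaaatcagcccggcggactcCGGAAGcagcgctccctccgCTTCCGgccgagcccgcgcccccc
The DCK window held 1 E-box, 3 GC boxes and 1 ETS core. In PNP there were 2 GC boxes, which overlap each other, and 1 CCAAT box. SAMHD1 had 2 CCAAT boxes and no GC box, and NT5C had 2 overlapping GC boxes and 2 ETS cores. Of the 35116 promoter windows of this length, 6.34% held an E-box, 42.6% a GC box, 32.0% a CCAAT box and 16.5% an ETS core. The TATA box and the E2F forms, held by 10.7% and 2.79% of windows, had no match in these 4.

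With NEL, 6 of the 10 genes changed in KG1A and 7 in U937, each by less than 2-fold. In KG1A SAMHD1, PNP, SLC29A1 and NT5C2 rose and DGUOK and NT5C fell. In U937 TK2, SAMHD1, DCK, NT5C2 and ADA rose and NT5C and SLC29A1 fell. SAMHD1 and NT5C2 thus rose and NT5C fell in both lines, while SLC29A1 went up in one and down in the other. Of the KG1A calls, those of NT5C2, NT5C and DGUOK were lost in 4, 5 and 2 of 19 alternative fits, and the others in none. Here a call means an edgeR quasi-likelihood adjusted p below 0.05, with Benjamini-Hochberg adjustment across every gene tested.

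These counts stand against many calls elsewhere: 47.2% of all 14250 genes tested were called in KG1A and 69.3% of 14390 in U937, so 6 and 7 of 10 are near the background. By direction, 23.6% of all genes were higher and 23.6% lower in KG1A, against 4 and 2 of the 10, and 34.6% and 34.7% in U937, against 5 and 2. Of the KG1A calls over all genes 50.0% were higher in the count test, but 64.5% on log2 RPKM without that scaling. The median log2 fold change of the 10 genes was 0.058 in KG1A and 0.16 in U937, where that of all genes was -0.0045 and -0.0044. Groups did not overlap in 4 of the 10 genes in KG1A and 7 in U937, against 42.2% and 62.4% of all genes tested. With the replicate number as a block or library set as a covariate, 4 of the 10, not 2, were called lower in KG1A, the additions being SLC29A2 and DCK. With libraries 1 and 2, and 3 and 4, summed, 3 were called lower, and DCK was not called.

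**Figure D1:**
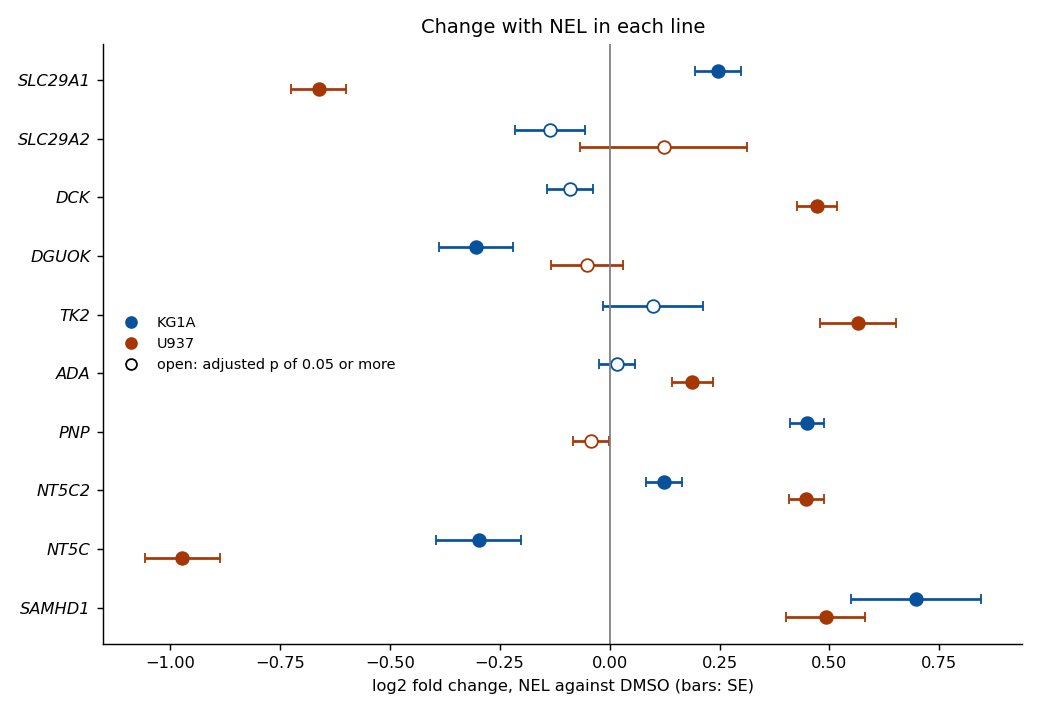
Log2 fold change with NEL against DMSO for the 10 genes in KG1A (blue) and U937 (red), with standard errors as bars and open points for an edgeR adjusted p of 0.05 or more. SAMHD1 and NT5C2 lie right of 0 and NT5C left of it in both lines, and SLC29A1 lies at 0.25 in KG1A and -0.66 in U937.

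SLC29A1 (ENSG00000112759, chromosome 6, 44187242 to 44201888, GRCh37 here and for all members) encodes ENT1, the main equilibrative nucleoside transporter of the plasma membrane. In KG1A its 4 DMSO libraries held 79.4, 78.2, 84.0 and 73.3 CPM and its NEL libraries 95.7, 92.0, 100.2 and 87.2 CPM. All 4 NEL libraries were above all 4 DMSO libraries, a log2 fold change of 0.25 ± 0.053 (SE, n = 4 per group, edgeR adjusted p = 0.00147), or 1.19-fold. It was 0.26 and 0.24 in the odd and even libraries.

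U937 held far more of this transcript and lost part of it with NEL. The DMSO libraries were at 328, 308, 339.8 and 299 CPM and the NEL libraries at 222, 197, 208 and 177 CPM. No NEL library reached the lowest DMSO library, and SLC29A1 fell 1.58-fold (-0.66 ± 0.063 on the log2 scale, edgeR adjusted p = 4.62e-07; -0.64 and -0.69 by library set). The NEL effect differed between the lines by -0.92 ± 0.088 (U937 minus KG1A, interaction test, edgeR adjusted p = 1.79e-08), the largest such difference among the 10 genes. Over all 16117 genes tested, 47.4% were called for this difference, and 7 of the 10 members were. Even after the fall, U937 with NEL stayed 2.14-fold above KG1A with NEL.

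SLC29A2 (ENSG00000174669, chromosome 11, 66129992 to 66139685) encodes ENT2, a second equilibrative transporter that also carries nucleobases. KG1A with DMSO held 78.9, 64.6, 72.9 and 63.1 CPM, and U937 with DMSO 4.12, 3.46, 2.77 and 3.10 CPM, from 31 to 46 counts per library. The lines differed 21.9-fold (-4.46 ± 0.11 on the log2 scale, U937 against KG1A, edgeR adjusted p = 5.61e-16), the widest gap among the 10 genes. With NEL the KG1A libraries held 72.5, 56.9, 65.2 and 60.8 CPM and overlapped the DMSO group, and the gene was not called (-0.14 ± 0.079, edgeR adjusted p = 0.176). The fits with the replicate number as a block or library set as a covariate did call it lower there at the same size (edgeR adjusted p = 0.00216 and 0.00426). So did the odd libraries alone and the fit without KG1A NEL library 1 (-0.14 and -0.20, edgeR adjusted p = 0.0373 and 0.0422), and over all alternatives the adjusted p ran from 0.00216 to 0.53. In U937 it stayed at 2.89 to 4.43 CPM with NEL (0.12 ± 0.19, edgeR adjusted p = 0.578).

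Levels of different genes can be set beside each other only per exon length. In deposited RPKM (reads scaled to exon length and library total), SLC29A1 and SLC29A2 stood at 22.5 ± 1.20 and 25.2 ± 2.48 in KG1A with DMSO (mean ± SD, n = 4, here and for all means below). In U937 the same 2 genes stood at 89.5 ± 5.16 and 1.19 ± 0.212. SLC29A1 thus made up 47.2 ± 1.99% of their summed RPKM in KG1A and 98.7 ± 0.227% in U937. Their sum in KG1A was 47.7 ± 3.30 RPKM under DMSO and 51.9 ± 3.25 RPKM under NEL. The U937 sums were 90.7 ± 5.18 and 61.6 ± 5.31 RPKM. KG1A therefore held the pair in similar amounts, and of these 2 genes U937 held almost only SLC29A1. Other uptake genes are outside this sum. One is SLC28A3, with a mean of 14.9 and 32.4 CPM in U937 with DMSO and NEL and of 0 in KG1A. SLC43A3, a further transporter outside the sum, went the other way between the lines. Its means with DMSO and NEL were 211.5 and 246.1 CPM in KG1A and 127.7 and 96.82 CPM in U937. RPKM carry no TMM scaling. On log2(RPKM + 0.5) the median change of all genes with NEL was 0.053 in KG1A and 0.074 in U937, against -0.0045 and -0.0044 in the count test.

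**Figure D2:**
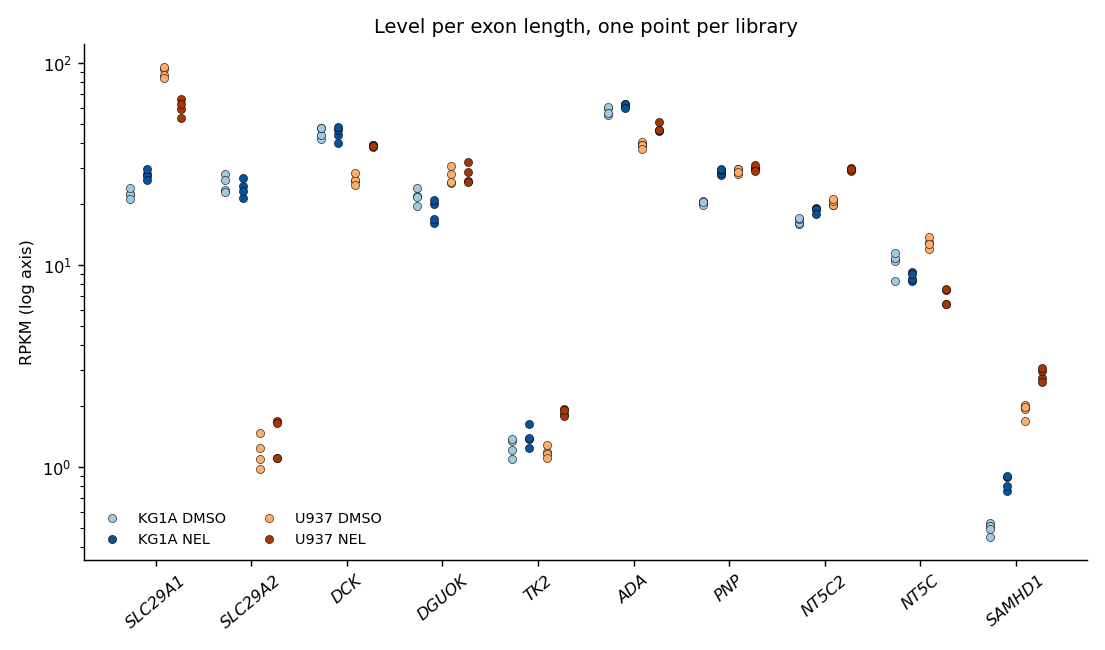
Deposited RPKM on a log axis for each of the 10 genes, with 1 point per library and colours for the 4 groups of line and treatment. SLC29A2 lies between 21.5 and 28.1 in KG1A and at or under 1.68 in U937, and SAMHD1 and TK2 reach at most 3.07 and 1.93.

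DCK (ENSG00000156136, chromosome 4, 71858255 to 71896631) encodes deoxycytidine kinase, which adds the first phosphate to deoxycytidine, to purine deoxynucleosides and to drugs built on them. Its U937 DMSO libraries held 86.1, 86.9, 83.7 and 95.7 CPM, and with NEL they held 124, 123, 120.0 and 121 CPM. All 4 NEL libraries were well above all 4 DMSO libraries. DCK rose 1.39-fold (0.47 ± 0.046, edgeR adjusted p = 6.32e-07), by 0.52 and 0.43 in the odd and even libraries.

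In KG1A the DCK libraries held 140.2, 144, 156 and 156 CPM with DMSO and 128, 138, 147 and 149.6 CPM with NEL. The groups overlapped and the gene was not called (-0.09 ± 0.053, edgeR adjusted p = 0.181). The fits with the replicate number as a block or library set as a covariate called it lower at that same small size (edgeR adjusted p = 0.00527 and 0.0187). So did the odd libraries alone (-0.11, edgeR adjusted p = 0.0343), and over all alternatives the adjusted p ran from 0.00527 to 0.783. DCK was not called with libraries 1 and 2, and 3 and 4, summed (edgeR adjusted p = 0.0938) or in the even libraries alone (edgeR adjusted p = 0.229). The effect was 0.55 ± 0.073 larger in U937 (interaction, edgeR adjusted p = 1.94e-06). Without the drug KG1A held 1.79-fold more DCK than U937, and with it 1.16-fold more, both called (edgeR adjusted p = 1.07e-10 and 8.62e-04).

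DGUOK (ENSG00000114956, chromosome 2, 74153953 to 74186088), the mitochondrial deoxyguanosine kinase, fell in KG1A. Its libraries held 29.3, 35.7, 32.4 and 31.6 CPM with DMSO and 23.1, 28.2, 24.1 and 29.5 CPM with NEL. The highest NEL library was just above the lowest DMSO library, and the change was -0.30 ± 0.085 (edgeR adjusted p = 0.00857), or -0.39 and -0.23 in the odd and even libraries. On log2 RPKM that call was lost (limma adjusted p = 0.0589 and 0.0592 for the 2 pseudocounts, and from 2.19e-06 to 0.0592 over all alternatives). U937 held 38.0, 41.9, 38.9 and 46.7 CPM with DMSO and 36.8, 45.7, 36.5 and 40.3 CPM with NEL, overlapping groups with no call (-0.051 ± 0.082, edgeR adjusted p = 0.593). The difference of the effects was not called either (0.24 ± 0.13, edgeR adjusted p = 0.125). Fits with the replicate number as a block or library set as a covariate did call it (edgeR adjusted p = 0.007 and 0.00713). DESeq2 size factors called it too (0.33, edgeR adjusted p = 0.0374), and the adjusted p ran from 0.007 to 0.278 over all alternatives.

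TK2 (ENSG00000166548, chromosome 16, 66541906 to 66586447), the mitochondrial kinase of thymidine and deoxycytidine, was low in every group, averaging 1.18 ± 0.079 RPKM in U937 with DMSO. U937 held 8.77, 8.51, 9.65 and 8.24 CPM with DMSO and 12.8, 13.4, 12.4 and 13.2 CPM with NEL. These groups lay apart, a 1.48-fold rise (0.56 ± 0.086, edgeR adjusted p = 4.77e-05; 0.45 and 0.68 by library set). In KG1A TK2 was at 7.97 to 9.96 and 8.65 to 11.6 CPM, which overlapped, with no call (0.10 ± 0.11, edgeR adjusted p = 0.503). The effects differed by 0.46 ± 0.14 (edgeR adjusted p = 0.00948), a call that the odd libraries alone did not give (0.34, edgeR adjusted p = 0.19, the highest over all alternatives, with 0.00231 the lowest).

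Per exon length, DCK took 66.3 ± 1.86% of the summed RPKM of the 3 kinases in KG1A with DMSO and 69.2 ± 1.99% under NEL. In U937 its share was 48.0 ± 1.01% with DMSO and 56.5 ± 2.42% with NEL. The 3 kinases summed to 54.9 ± 3.90 RPKM in DMSO-treated U937 and 68.9 ± 3.39 RPKM under NEL, and the KG1A sums were 68.3 ± 3.72 and 64.5 ± 5.11 RPKM. These sums too carry no TMM scaling. With DMSO DGUOK and DCK stood at similar levels in U937, 27.4 ± 2.53 and 26.3 ± 1.51 RPKM, and in KG1A DCK was at 45.3 ± 2.76 against 21.8 ± 1.86 RPKM.

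ADA (ENSG00000196839, chromosome 20, 43248163 to 43280874) encodes adenosine deaminase, the enzyme that frees ara-G from nelarabine. Among the 10 genes it had the highest RPKM in KG1A and the second highest in U937, 57.8 ± 2.33 and 39.1 ± 1.38 with DMSO. KG1A held 175, 161, 174 and 162 CPM with DMSO and 176, 168, 174 and 164 CPM with NEL. These values were much the same, and the gene was not called (0.016 ± 0.041, edgeR adjusted p = 0.773).

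In U937 ADA held 119, 116, 117 and 111 CPM with DMSO and 142, 127, 129 and 128 CPM with NEL. All NEL libraries were higher, library 1 the most, and the rise was 1.14-fold (0.19 ± 0.046, edgeR adjusted p = 0.0025; 0.19 and 0.18 by library set). The difference between the lines just passed the threshold (0.16 ± 0.062, edgeR adjusted p = 0.0363). Leaving out KG1A DMSO library 1 or 3, KG1A NEL library 2 or 4, U937 DMSO library 2 or 4 or U937 NEL library 1 ended that call (edgeR adjusted p from 0.0574 to 0.0899), as did testing without a filter or in the even libraries alone (0.112 and 0.0843). DESeq2 size factors gave 0.25 for this difference, and the adjusted p ran from 7.56e-04 to 0.112 over all alternatives.

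PNP (ENSG00000198805, chromosome 14, 20937113 to 20945253) encodes purine nucleoside phosphorylase, which splits guanosine, inosine and their deoxy forms into base and sugar phosphate. In KG1A it held 86.0, 83.0, 86.6 and 85.5 CPM with DMSO and 114, 115, 119.6 and 119 CPM with NEL. The groups were tight and far apart, a 1.36-fold rise (0.45 ± 0.038, edgeR adjusted p = 3.98e-07; 0.43 and 0.47 by library set). U937 held 126, 119.8, 129 and 124 CPM with DMSO and 121, 121, 125 and 116 CPM with NEL, overlapping groups with no call (-0.042 ± 0.042, edgeR adjusted p = 0.381). The effect in U937 minus that in KG1A was -0.50 ± 0.053 (interaction, edgeR adjusted p = 8.54e-08). With DMSO U937 held 1.38-fold more PNP than KG1A (edgeR adjusted p = 2.08e-08), and with NEL the lines overlapped and were not told apart (0.044 ± 0.039, edgeR adjusted p = 0.305).

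**Figure D3:**
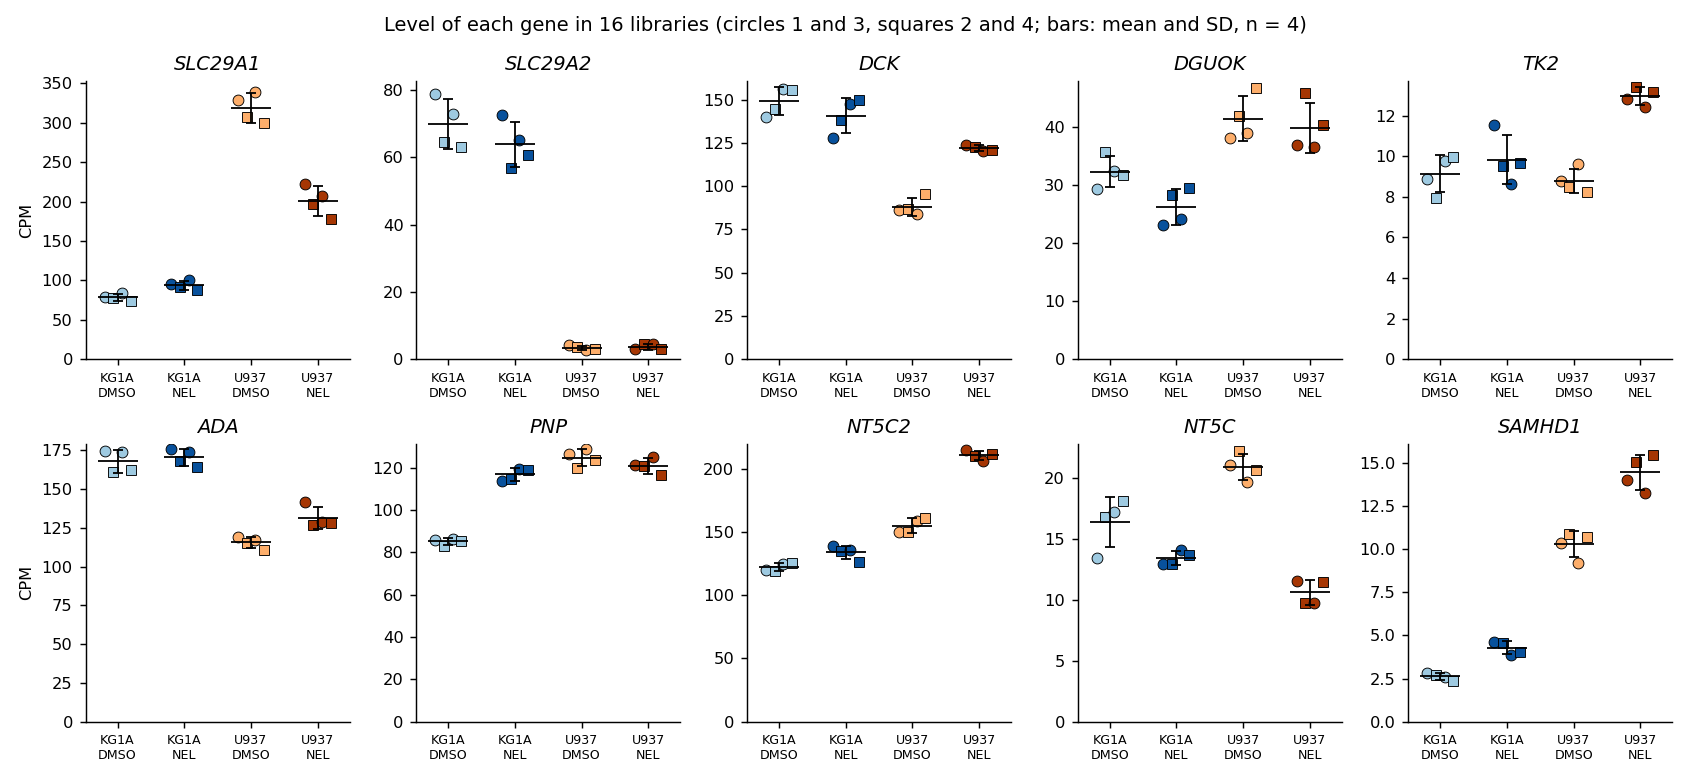
CPM of the 10 genes in each of the 16 libraries, with circles for libraries 1 and 3, squares for 2 and 4, and the mean and SD of each group as black lines. PNP lies at 83.0 to 86.6 CPM in KG1A with DMSO and 114 to 119.6 CPM with NEL, and SLC29A2 reaches at most 4.43 CPM in U937.

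SAMHD1 (ENSG00000101347, chromosome 20, 35518632 to 35580246) hydrolyses deoxynucleoside triphosphates and also ara-GTP. KG1A held 2.84, 2.69, 2.60 and 2.38 CPM with DMSO and 4.60, 4.59, 3.87 and 4.06 CPM with NEL, that is 26 to 30 and 42 to 52 counts per library. The groups did not overlap, with a log2 fold change of 0.70 ± 0.15 (edgeR adjusted p = 0.00128). On log2(RPKM + 0.5) it was 0.43, since this pseudocount is about as large as the KG1A level of 0.494 ± 0.0323 RPKM. U937 held 10.4, 10.9, 9.20 and 10.7 CPM with DMSO and 14.0, 15.1, 13.2 and 15.5 CPM with NEL, also without overlap (0.49 ± 0.09, edgeR adjusted p = 2.28e-04). The size of the rise was not shown to differ between the lines (-0.22 ± 0.16, edgeR adjusted p = 0.368). Its level did differ: U937 was 3.69-fold above KG1A with DMSO and 3.36-fold with NEL (edgeR adjusted p = 4.03e-10 and 5.38e-10). The order was U937 with NEL, U937 with DMSO, KG1A with NEL and KG1A with DMSO, and no neighbours in it overlapped.

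NT5C2 (ENSG00000076685, chromosome 10, 104845940 to 104953056) encodes a cytosolic nucleotidase that acts on purine monophosphates and whose activating mutations are known in relapsed lymphoblastic leukaemia. U937 held 149.9, 149.6, 159 and 161 CPM with DMSO and 215, 209.9, 206 and 212 CPM with NEL. All NEL libraries were well above the DMSO ones, a 1.36-fold rise (0.45 ± 0.04, edgeR adjusted p = 2.42e-07; 0.45 and 0.45 by library set). KG1A held 119.9, 119.5, 125 and 125 CPM with DMSO and 139, 135, 136 and 127 CPM with NEL, a narrow separation (0.12 ± 0.041, edgeR adjusted p = 0.0213). That KG1A call was lost without DMSO library 1 or 2 or NEL library 1 (edgeR adjusted p from 0.0533 to 0.0625) and in the even libraries alone (0.09, edgeR adjusted p = 0.0924), and log2(RPKM + 0.1) gave 0.19. Over all alternatives this adjusted p ran from 2.43e-04 to 0.0924. The rise was larger in U937 by 0.31 ± 0.054 (edgeR adjusted p = 5.65e-05).

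NT5C (ENSG00000125458, chromosome 17, 73126320 to 73127890) encodes the cytosolic 5′(3′)-deoxyribonucleotidase, which takes the phosphate off deoxynucleoside monophosphates. In U937 it held 21.0, 22.2, 19.7 and 20.6 CPM with DMSO and 11.5, 9.71, 9.75 and 11.5 CPM with NEL. Every NEL library was far below every DMSO library, a 1.96-fold fall (-0.97 ± 0.085, edgeR adjusted p = 1.99e-07; -0.94 and -1.0 by library set) and the largest NEL effect among the 10 genes. KG1A held 13.4, 16.8, 17.2 and 18.1 CPM with DMSO and 12.9, 13.0, 14.1 and 13.6 CPM with NEL. DMSO library 1 fell among the NEL libraries there and the others were higher (-0.30 ± 0.10, edgeR adjusted p = 0.0192). The KG1A call was lost without DMSO library 3 or 4 (edgeR adjusted p = 0.0509 and 0.0658), in the odd libraries alone (-0.19, edgeR adjusted p = 0.219) and on log2 RPKM (limma adjusted p = 0.0779 and 0.0775), within a range from 0.001 to 0.219. The fall was deeper in U937 (U937 minus KG1A -0.68 ± 0.13, interaction, edgeR adjusted p = 1.26e-04). With DMSO U937 was 1.20-fold above KG1A (edgeR adjusted p = 0.0126), a call lost without KG1A DMSO library 1 (0.18, 0.0539) or in the even libraries alone (0.21, 0.0687, with 9.73e-04 the lowest over all alternatives). With NEL it was 1.27-fold below (edgeR adjusted p = 0.00298).

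**Figure D4:**
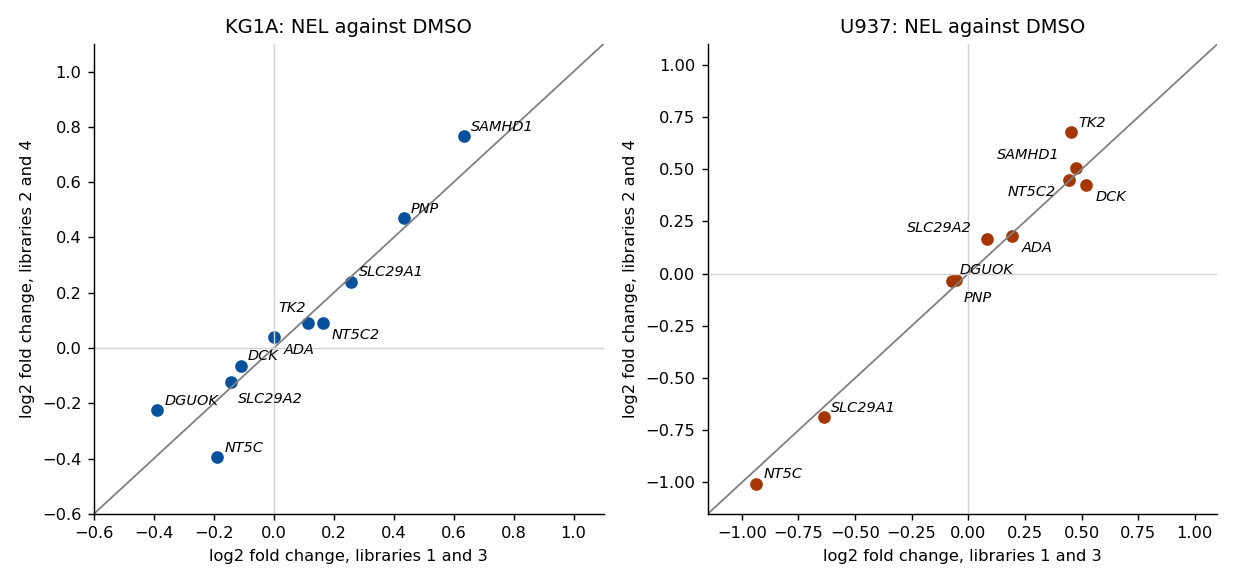
Log2 fold change with NEL in the odd libraries (x axis) against the even ones (y axis) for the 10 genes, in KG1A (left) and U937 (right), with the line of equal values in grey. Each gene has the same sign in both sets, with DGUOK and NT5C in KG1A and TK2 in U937 farthest from the line.

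Between the lines under DMSO, U937 was higher in 6 of the 10 genes (SLC29A1, SAMHD1, PNP, DGUOK, NT5C and NT5C2) and lower in 3 (SLC29A2, DCK and ADA), with TK2 not called (-0.14 ± 0.11, edgeR adjusted p = 0.229). This is close to the background, as 86.4% of 15181 genes tested were called, 43.0% higher and 43.4% lower. SLC29A1 was 3.82-fold higher in U937 (1.94 ± 0.053, edgeR adjusted p = 2.13e-15). ADA was 1.54-fold higher in KG1A (-0.62 ± 0.045, edgeR adjusted p = 1.03e-09). DGUOK and NT5C2 differed by 0.28 ± 0.075 and 0.26 ± 0.042 (edgeR adjusted p = 0.00278 and 2.85e-05). Under NEL 5 genes were higher in U937 and 4 lower, with PNP not called, against 85.1% of 15602 genes called, 42.3% higher and 42.9% lower. Libraries of the 2 lines did not overlap in 9 of the 10 genes with DMSO, against 81.6% of all genes, and in 9 with NEL, against 80.6%. NT5C, higher in U937 without the drug, was among the 4 lower with it, and TK2 was among the 5 higher (0.39 ± 0.10, edgeR adjusted p = 0.00171). These comparisons share libraries with the NEL comparisons, so they are not independent of them. In these bulk libraries, fewer cells holding a transcript and less of it per cell cannot be told apart.

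Ordered by mean CPM over the 4 groups, SLC29A1, NT5C2 and SAMHD1 were the 3 genes in which no neighbouring groups overlapped. The highest group was U937 with NEL for NT5C2, SAMHD1 and TK2, and U937 with DMSO for SLC29A1, PNP, DGUOK and NT5C. KG1A was highest for SLC29A2, DCK and ADA, and in each of these 3 its DMSO and NEL libraries overlapped while no U937 library reached them. For PNP, U937 with NEL overlapped both U937 with DMSO above it and KG1A with NEL below it, and KG1A with DMSO lay below them all. NT5C was lowest in U937 with NEL and highest in U937 with DMSO, with both KG1A groups between.

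For the difference of the NEL effect, 4 of the 10 genes were higher in U937 (DCK, TK2, NT5C2 and ADA) and 3 lower (SLC29A1, NT5C and PNP), against 21.1% and 26.3% of all genes. Of all calls for this difference 44.5% were higher in edgeR and 54.6% in DESeq2, so the split over all genes moves with the scaling. SLC29A2, DGUOK and SAMHD1 were the 3 not called.

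In the annotation 9 of the 10 genes, all but SLC29A1, overlap another gene of the table. How the authors set strand when counting is not given, so reads of a member and its neighbour cannot be told apart in the shared bases. Shared exonic bases are from GENCODE 29 (GRCh38). CNNM2, antisense to NT5C2 with 1892 shared bases, rose in U937 by 0.49 ± 0.052 (edgeR adjusted p = 1.49e-06) and was at 0.045 ± 0.052 in KG1A (edgeR adjusted p = 0.512). ENSG00000258908, antisense to PNP with 492, rose in KG1A by 0.43 ± 0.064 (edgeR adjusted p = 7.17e-05) and was at 0.01 ± 0.068 in U937 (edgeR adjusted p = 0.901). These 2 neighbours moved in the same direction as the member in the line where it changed most.

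Others did so too. TLDC2, antisense to SAMHD1 with 1159 shared bases, rose in U937 by 0.68 ± 0.22 (edgeR adjusted p = 0.0147), but averaged 15.6 counts per library against 89.9 for SAMHD1. MOB1B, on the strand of DCK with 199 shared bases, rose in U937 by 0.25 ± 0.076 (edgeR adjusted p = 0.00981). PKIG, with 46 bases antisense to ADA, rose there by 1.08 ± 0.09 (edgeR adjusted p = 1.22e-07), and ARMC7, with 41 antisense to NT5C, fell (-0.60 ± 0.11, edgeR adjusted p = 1.99e-04). Of 2 antisense genes in TK2, ENSG00000260755 rose in U937 by 0.58 ± 0.25 (edgeR adjusted p = 0.0496), with 511 shared bases, and ENSG00000261519 was at 0.66 ± 0.28 (edgeR adjusted p = 0.0514), with 1056. DGUOK-AS1 shares 62 bases with DGUOK and was at -0.29 ± 0.13 in KG1A (edgeR adjusted p = 0.077). B4GAT1-DT, antisense to SLC29A2 with 279 shared bases, was 12.6-fold lower in U937 than in KG1A with DMSO (-3.65 ± 0.18, edgeR adjusted p = 7.88e-12), the direction of SLC29A2. MOB1B, CNNM2 and TLDC2 also differed between the lines under DMSO in the direction of their members (-0.91 ± 0.074, 0.32 ± 0.058 and 1.85 ± 0.36, edgeR adjusted p = 4.72e-09, 9.08e-05 and 1.37e-04). ENSG00000258908 and PKIG did so as well (0.45 ± 0.066 and -0.43 ± 0.085, edgeR adjusted p = 8.49e-06 and 1.79e-04). DGUOK-AS1, ARMC7 and the antisense genes in TK2 were not called there. The part of these neighbours in the members' values was not tested.

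The wider pathway was taken from a list of transporters, kinases and breakdown enzymes with 67 genes in the table. In KG1A 49 of them were tested, and 19 rose, 8 fell and 22 were not called, with a median log2 fold change of 0.076, where 23.6% of all genes rose and 23.6% fell. In U937 16 rose, 23 fell and 13 were not called of 52 tested, with a median of -0.12, where 34.6% of all genes rose and 34.7% fell. The medians of all genes tested were -0.0045 and -0.0044. For the difference between the lines 11 were higher and 26 lower in U937 of 55 tested, against 21.1% and 26.3% of all genes, a split that over all genes turned with the scaling (44.5% of calls higher in edgeR, 54.6% in DESeq2).

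Among 13 further uptake and efflux genes, 7 were tested in KG1A and 3 rose with none lower, and of 8 in U937 2 rose and 2 fell, against 47.2% and 69.3% of all genes called in the 2 lines. Efflux pumps carry nucleotides or drugs out of the cell, and ABCC5, one that exports nucleoside monophosphates, rose in KG1A from 33.2 to 52.0 CPM (0.64 ± 0.05, edgeR adjusted p = 1.77e-07). Of 24 further nucleoside and nucleotide kinases, 6 rose and 4 fell of 22 tested in KG1A, and 7 rose and 11 fell of 21 in U937, beside the same all-gene shares of 47.2% and 69.3%. TK1, the cytosolic thymidine kinase of S phase, rose in KG1A from 60.0 to 135 CPM (1.17 ± 0.055, edgeR adjusted p = 1.28e-09). NME1, a nucleoside diphosphate kinase that makes triphosphates, fell in U937 from 94.2 to 35.0 CPM (-1.43 ± 0.045, edgeR adjusted p = 1.13e-11). AK9, a further adenylate kinase, fell in KG1A (-0.42 ± 0.074, edgeR adjusted p = 2.87e-04).

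Of 30 breakdown and salvage genes, 10 rose and 4 fell of 20 tested in KG1A, and 7 rose and 10 fell of 23 in U937, again with 47.2% and 69.3% of all genes called. ADA2, a secreted adenosine deaminase of myeloid cells, rose in both lines, in KG1A from 23.7 to 36.9 CPM (0.63 ± 0.066, edgeR adjusted p = 2.80e-06) and in U937 from 21.5 to 64.9 CPM (1.60 ± 0.057, edgeR adjusted p = 3.69e-11). APRT, which salvages adenine, fell in both (-1.05 ± 0.062 in KG1A and -1.11 ± 0.066 in U937, edgeR adjusted p = 1.16e-08 and 3.67e-09), and its effects were not shown to differ (-0.076 ± 0.092, edgeR adjusted p = 0.543). CDA, which deaminates cytidine and cytarabine, rose in U937 from 16.1 to 44.6 CPM (1.47 ± 0.072, edgeR adjusted p = 6.00e-10), and so did the AMP deaminase gene AMPD3 (1.34 ± 0.073, edgeR adjusted p = 1.78e-09). DCTPP1, which hydrolyses dCTP, fell in U937 (-0.85 ± 0.052, edgeR adjusted p = 6.09e-09). AMPD2, another AMP deaminase gene, fell in KG1A (-0.25 ± 0.037, edgeR adjusted p = 7.40e-05).

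Genes most like 3 of the members were found by Pearson's r of log2(CPM + 0.5) over the 16 libraries, after subtracting each line's mean, among 11176 genes. For DCK they were RNASEH2B (0.973), ARHGAP18 (0.968) and PRPSAP2 (0.968). For SLC29A1 they were POLD2 (0.978), NUP214 (0.975) and ALG8 (0.975), and for SAMHD1 CDK5RAP3 (0.974), XRCC1 (0.967) and SYNJ2 (0.966). The points share their libraries and the split into NEL and DMSO, so these are descriptions of the pattern only.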

How the data were processed

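Per the labels' protocols, RNA of the 16 libraries was isolated by Trizol and column, its polyadenylated part was selected, and a Kapa kit gave stranded libraries. The submitters' processing notes list HTSeq 0.11.2, TopHat2 and bcl2fastq 2.18.0.12, with hg19 (GRCh37) as the build. Neither the annotation nor the strand setting is given in the sources used here. What the authors deposited is raw read counts per gene and RPKM values of the same libraries, and these RPKM equalled count per exon length and library total (largest relative deviation 1.86e-07). Every column matched a sample.

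Of 34618 IDs, 32562 matched a symbol. Counts were tested with edgeR 4.0.16 in R 4.3.3 (quasi-likelihood, TMM, minimum count 10, minimum total 15, adjusted p under 0.05), with the interaction over 16 libraries and the other comparisons over 8. The code was tested on simulated data. CPM values carry 1 TMM scaling of all 16 libraries. A standard error is the log2 fold change divided by the square root of F. The alternatives were DESeq2 1.42.0 size factors and test, no filter or 1 CPM in 4 libraries, limma 3.58.1 on log2(RPKM + 0.5) or log2(RPKM + 0.1), the replicate block, the library sets, libraries 1 and 2, and 3 and 4, summed, and each library left out. Same-numbered libraries deviated together in every pair (r from 0.277 to 0.369), but libraries of other number in the same set correlated as much (0.264 to 0.401). The data thus show the library sets and no pairing by number beyond them. Labels state no pairing either, so the replicate block is an alternative only.

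The rule named all 10 genes, the 3 largest changes each way of related genes (called, at least 5 CPM in the higher group) per line, and the 3 genes most like DCK, SLC29A1 and SAMHD1. SLC28A3 and SLC43A3 are named outside this rule. The members and the lists of related genes and of progenitor, myelomonocytic, T lymphoid and B lymphoid markers were chosen with earlier results of these data known. The 4 progenitor markers summed to 838 to 1039 CPM in KG1A and 0.709 to 2.90 CPM in U937. The KG1A sum was nearly all CD34 (835 to 1033 CPM), so it adds little to that gene alone. One further marker list is not reported here. Plots come from matplotlib 3.10.9 under Python 3.11.15.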

Additional observations from a re-analysis of the deposited data

Results flagged for a closer look

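ADA in U937 with NEL had 1 library, number 1, at 142 CPM, far from the other 3, the nearest of which was at 129 CPM. It was the only such library in 40 groups of 4 examined (10 genes in 4 groups), where chance gives about 1 in 20.

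The NEL effect differed between the lines in 7 of the 10 genes by the interaction test, in log2 units of U937 minus KG1A with edgeR adjusted p, against 47.4% of all 16117 genes tested. SLC29A1 was at -0.92 (edgeR adjusted p = 1.79e-08). In KG1A all 4 of its NEL libraries lay above all 4 DMSO libraries, and in U937 all 4 lay below them. NT5C was at -0.68 (edgeR adjusted p = 1.26e-04) and PNP at -0.50 (edgeR adjusted p = 8.54e-08). DCK was at 0.55 (edgeR adjusted p = 1.94e-06), TK2 at 0.46 (edgeR adjusted p = 0.00948), NT5C2 at 0.31 (edgeR adjusted p = 5.65e-05) and ADA at 0.16 (edgeR adjusted p = 0.0363).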

How the results depend on the processing

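Of 1030 refits of single genes over the 5 comparisons, 985 kept direction and side of the threshold, 23 lost a call, 14 gained one and 8 changed sign. No sign change was in a called gene. ADA in KG1A went to -0.0049 without DMSO library 2 and below 0 without library 4, and ran up to 0.035 with a library left out. DGUOK in U937 went to 0.037 on log2(RPKM + 0.5) and on log2(RPKM + 0.1), and from -0.13 to 0.0054 with a library left out. PNP in U937 went to 0.048 on both RPKM scales, and the SAMHD1 difference between lines to 0.050 on log2(RPKM + 0.5). Members called lower in KG1A numbered 4 with the replicate block or a covariate for library set, 0 with limma on either RPKM scale, and 1 to 3 with a library left out. Beyond the KG1A calls of SLC29A2 and DCK and the DGUOK difference, the replicate block changed no call. It pairs libraries by number, which the data do not show beyond the library sets. A covariate for library set gained the same calls. The counts of called members otherwise stayed within 1.5 times of their value. SAMHD1 in KG1A and SLC29A2 in U937, at 26 to 52 and 31 to 52 counts per library, are limited by depth. The cause of these changes was not tested.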

Other observations

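Library sets differed in some of these genes. SLC29A1 and ADA had a higher mean CPM in the odd than in the even libraries in 4 of 4 groups, with odd to even ratios of 1.08 to 1.15 for SLC29A1 and 1.04 to 1.08 for ADA. SLC29A2 had ratios of 1.19 and 1.17 in the KG1A groups with DMSO and NEL, and 1.05 and 0.998 in those of U937. DGUOK was lower in the odd libraries in 4 of 4 groups, with ratios from 0.818 to 0.916. With NEL in KG1A DGUOK was 1.24-fold lower.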
